A study of Mus musculus with 10 samples.

Results

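The 44 collagen genes described here are all protein-coding mouse genes of the count tables whose symbol is Col, a number, the letter a and a number, out of 43629 gene identifiers and 21551 protein-coding genes. They were grouped by collagen type into 11 fibrillar genes, 6 of basement membrane collagen IV, 9 of fibril-associated collagens, 6 of beaded filament collagen VI, 3 of short-chain network collagens, 2 multiplexins, 4 transmembrane collagens and 3 others. Total RNA was sequenced from dorsal telencephalon, the precursor of the cerebral cortex, in C57BL/6 mouse embryos at E14.5. The 5 control samples carried no Cre allele and had 1 floxed and 1 wild-type copy of Dot1l (f/+), and the 5 Dot1l-cKO samples carried 1 Cre allele and had both copies floxed (f/f). Dot1l encodes the histone methyltransferase of lysine 79 of histone H3. Cre is active in forebrain neural cells, and only the Dot1l-cKO samples carry it, so effects of the Cre allele and of the homozygous Dot1l deletion cannot be told apart, and the controls carry 1 floxed Dot1l allele themselves. The comparison asks which collagen transcripts differ when Dot1l is deleted in the developing forebrain.

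Total counts were 54202349 to 66556034 per sample, which the labels call biological replicates. Of the markers of the tissue, 7 were checked, Emx1, Emx2, Pax6, Eomes, Tbr1, Neurod2 and Neurod6, and all were detected in every sample. Pax6, a transcription factor of radial glia, was the only one of the 7 called between genotypes, with a log2 fold change of -0.36 ± 0.09 (SE, adjusted p = 0.0294 in edgeR). Dot1l itself had 31.4 to 41.5 CPM (counts scaled to a normalised library total of 1e+06) in the controls and 20.1 to 51.7 CPM in Dot1l-cKO. Its count sums all exons, inside and outside the deleted part, so it does not check the genotype labels. In 4 libraries, replicates 2 and 3 of both groups, mitochondrial rRNA took 0.0471% to 0.492% of the counts, and in the other 6 libraries 5.79% to 10.9%. The deposited column names give those 4 libraries a shared number, 57, that no source used here explains, and results are given within each set of libraries where they bear on a call. Collagen genes together took 477 to 2347 of every 1e+06 counts of a library, with the highest shares in control 3 (2347) and Dot1l-cKO 5 (2280) and the lowest in control 4 (477).

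Collagens are extracellular proteins built from 3 chains wound into a triple helix. Fibrillar collagens I, II, III, V and XI form the cables of connective tissue and cartilage, fibril-associated collagens sit on the surface of those cables, and collagen IV forms the sheet-like network of basement membranes. In the embryonic brain the pial basement membrane separates the neuroepithelium from the meninges, and the endfeet of radial glia attach to it. Meningeal fibroblasts and vessels are major sources of collagen there, while neural cells make a smaller and more particular set. In bulk tissue, fewer cells of a type and less RNA per cell cannot be told apart.

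To compare genes with one another, CPM were divided by the length in kilobases of the protein-coding transcript with the longest coding sequence. On that per-length scale the most abundant collagen transcripts of the controls were Col4a1 at 37.1 ± 19.3 CPM per kilobase (mean ± SD, n = 5), Col3a1 at 31.0 ± 30.9, Col4a2 at 17.4 ± 9.80, Col2a1 at 16.4 ± 4.59 and Col18a1 at 13.2 ± 5.44. Col4a1 and Col4a2 encode the ubiquitous chains of basement membranes, Col3a1 the collagen of soft connective tissue, Col2a1 the main collagen of cartilage and Col18a1 a proteoglycan of vascular and epithelial basement membranes. Neighbours in this order differed by less than the larger of their SDs. In Dot1l-cKO the first 2 places were again held by Col4a1 at 34.4 ± 21.7 and Col3a1 at 24.8 ± 30.0 CPM per kilobase. Those 5 genes held 61.5% of the collagen CPM of the controls. The lowest levels were those of Col10a1, with 0 to 4 counts in any sample, and Col6a5, with 3 to 18 counts, and these 2 genes did not pass the filter on low counts.

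The remaining 42 genes were tested with edgeR's quasi-likelihood test, fitted on 17039 genes, and a gene was called at a Benjamini-Hochberg adjusted p under 0.05. Col22a1, Col28a1, Col19a1, Col9a1 and Col4a4 rose in Dot1l-cKO, by 1.58-fold to 2.31-fold, and no collagen gene was called lower. The 5 called genes are 11.9% of those tested, beside 7.11% of all genes called in either direction, 5.67% higher and 1.44% lower. At an unadjusted p under 0.05, 11 collagen genes passed, beside 20.6% of all genes, and 1 of them, Col8a1, was lower in Dot1l-cKO, beside 7.3%. The median log2 fold change of the 42 genes was 0.0027, beside -0.0056 over all genes tested, with 21 above 0 and 21 below. In the same 5 collagen genes, and in no other collagen gene tested, every Dot1l-cKO sample lay above every control sample, an ordering that 6.17% of all genes tested show. Nothing particular to collagens as a class is read from these counts.

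**Figure D1:**
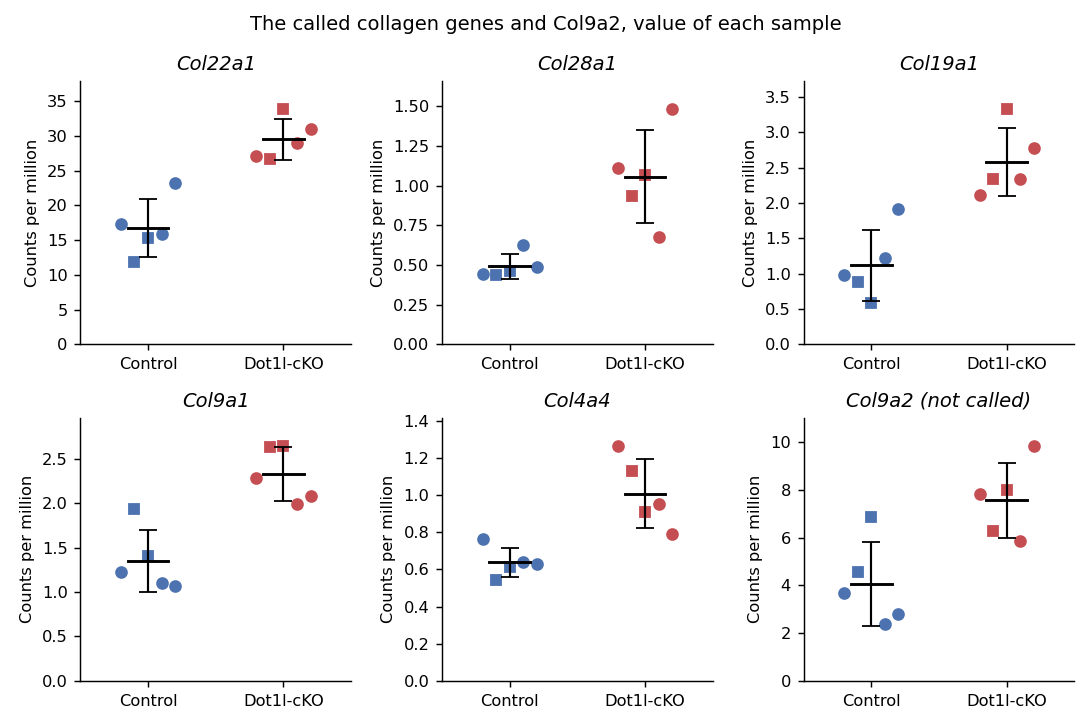
Level in CPM (linear axes from 0) of the 5 called collagen genes and of Col9a2 in each sample, with group mean and SD (bars, n = 5); squares are replicates 2 and 3, the libraries of low mitochondrial rRNA. In the 5 called genes the groups did not overlap, whereas for Col9a2 the highest control sample, 6.86 CPM, lay above 2 of the Dot1l-cKO samples.

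Col22a1 (ENSMUSG00000079022, chr15:71795795-72034227, minus strand, mm10) encodes a fibril-associated collagen found at tissue junctions such as that of muscle and tendon. Its level was 17.4, 11.8, 15.3, 15.9 and 23.3 CPM in controls 1 to 5 and 27.1, 26.8, 33.9, 29.1 and 31.0 CPM in Dot1l-cKO 1 to 5. The lowest Dot1l-cKO sample stood above the highest control, and the gene was the most abundant of the 5 that rose, also per length. This was a log2 fold change of 0.82 ± 0.15 (SE), adjusted p = 0.0084 in edgeR. The difference of mean log2 CPM was 1.16 within the 4 libraries of replicates 2 and 3 and 0.64 within the other 6. Col22a1 remained called whichever single library was left out, but not within the other 6 libraries alone (adjusted p = 0.0584), where 3 samples stand against 3.

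Col28a1 (ENSMUSG00000068794, chr6:7997808-8192617, minus strand) encodes a collagen described mainly in peripheral nerve. Its level was 0.442, 0.439, 0.464, 0.623 and 0.484 CPM in controls 1 to 5 and 1.11, 0.937, 1.07, 0.679 and 1.48 CPM in Dot1l-cKO 1 to 5. The counts behind these values were 22 to 92 per library. Control 4 and Dot1l-cKO 4 were the closest, 0.623 and 0.679 CPM. The log2 fold change was 1.10 ± 0.22 (SE), adjusted p = 0.0121 in edgeR, and the differences within the 2 sets of libraries were 1.09 and 0.98 on the log2 scale. This gene also remained called whichever single library was left out, and was not called within the other 6 alone (adjusted p = 0.130).

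Col19a1 (ENSMUSG00000026141, chr1:24261890-24587472, minus strand) encodes a fibril-associated collagen that some neurons of the forebrain make. Its level was 0.985, 0.877, 0.584, 1.21 and 1.92 CPM in controls 1 to 5 and 2.11, 2.34, 3.33, 2.34 and 2.77 CPM in Dot1l-cKO 1 to 5. The log2 fold change, 1.21 ± 0.28 (SE), was the highest among the collagen genes tested, with an adjusted p of 0.0251 in edgeR. It was 1.91 within replicates 2 and 3 and 0.84 within the other 6 libraries, on the log2 scale. The call was lost without control 1 (adjusted p = 0.0711), control 2 (0.0650), control 4 (0.0546), Dot1l-cKO 3 (0.0631) or Dot1l-cKO 5 (0.0552), with log2 fold changes between 1.10 and 1.24, and within the other 6 libraries alone (0.160).

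Col9a1 (ENSMUSG00000026147, chr1:24177610-24252684, plus strand) lies 9205 bases from Col19a1, tail to tail. It encodes a chain of collagen IX, a heterotrimer with the products of Col9a2 and Col9a3 that coats the fibrils of collagen II. Its level was 1.23, 1.93, 1.41, 1.11 and 1.07 CPM in controls 1 to 5 and 2.28, 2.64, 2.64, 1.99 and 2.08 CPM in Dot1l-cKO 1 to 5. Control 2, the highest control, came close to the lowest Dot1l-cKO sample. Its log2 fold change was 0.79 ± 0.19 (SE), adjusted p = 0.0276 in edgeR, with differences of 0.67 and 0.88 within the 2 sets of libraries. The call was lost, with adjusted p from 0.0507 to 0.0760, without control 1, 4 or 5 or without Dot1l-cKO 1, 2 or 3, and it held within the other 6 libraries alone (adjusted p = 0.0374).

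The partner Col9a2 had 3.68, 4.58, 6.86, 2.38 and 2.81 CPM in controls 1 to 5 and 7.83, 6.28, 7.98, 5.85 and 9.84 CPM in Dot1l-cKO 1 to 5. Only control 3 lay among the Dot1l-cKO values. The log2 fold change was 0.89 ± 0.27 (SE), adjusted p = 0.0744 in edgeR, and with the replicate number as a block it was 0.97, adjusted p = 0.0422. With the number in the column names as a block the adjusted p was 0.0439, within the other 6 libraries alone 0.0225, and without control 3 it was 0.0102. The third chain, Col9a3, the most abundant of the 3 per length in the controls at 4.13 ± 1.61 CPM per kilobase (n = 5), had a log2 difference of 0.28 ± 0.23, adjusted p = 0.558. The ratio of Col9a2 to Col9a3, per length, was 0.304 to 0.367 in the controls and 0.403 to 0.622 in Dot1l-cKO, without overlap. The mean log2 ratio was 0.62 higher in Dot1l-cKO. The 12 chain pairs compared were chosen with their values known, so their ratios are given without a test.

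Col4a4 (ENSMUSG00000067158, chr1:82448423-82586849, minus strand) encodes a collagen IV chain that joins those of Col4a3 and Col4a5 in the basement membrane of the kidney glomerulus. Its level was 0.764, 0.544, 0.614, 0.638 and 0.629 CPM in controls 1 to 5 and 1.26, 1.13, 0.910, 0.950 and 0.789 CPM in Dot1l-cKO 1 to 5. Control 1 and Dot1l-cKO 5 nearly touched. Its log2 fold change was 0.66 ± 0.18 (SE), adjusted p = 0.0469 in edgeR. The difference was 0.78 within replicates 2 and 3 and 0.52 within the other 6 libraries. With the replicate block the adjusted p was 0.0584, and within the other 6 libraries alone 0.280. Without Dot1l-cKO 5 it was 0.0429, and without any other single library the call was lost, with adjusted p from 0.0613 to 0.117. Per length it was among the rarest collagen transcripts tested, at 0.063 CPM per kilobase in the controls.

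Col4a3 (chr1:82586921-82722059, plus strand) starts 71 bases from Col4a4 on the other strand, so both genes share the bases between them as promoter. Col4a3 had 0.442, 0.246, 0.614, 0.249 and 0.371 CPM in controls 1 to 5 and 0.642, 0.503, 0.490, 0.648 and 0.612 CPM in Dot1l-cKO 1 to 5, with a log2 fold change of 0.59 ± 0.26, adjusted p = 0.236. Control 3 lay within the Dot1l-cKO values and the other 4 controls below them. The ratio of Col4a3 to Col4a4 was 0.461 to 1.18 in the controls and 0.527 to 0.916 in Dot1l-cKO, and the difference of the log2 ratio, 0.02, was smaller than the spread between samples. The shared interval is printed first below because 1 of its genes was called and the other had a fold change of like size. The 250 bases before the RefSeq start of Col28a1 and of Col9a1 are shown as those of called genes with no annotated exon there, and those of Col3a1 as the most abundant fibrillar collagen. Sequences are from RefSeq on GRCm38.p6, 5′ to 3′ on the strand of the named gene (Col4a4 for the interval), with capitals marking matches, on either strand, to the TATA box motif TATAAA, to the CCAAT box or to the GC box motif GGGCGG.
Col4a3-Col4a4 interval, chr1:82586850-82586920, minus strand: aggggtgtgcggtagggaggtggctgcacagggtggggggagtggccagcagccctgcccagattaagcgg
Col28a1, chr6:8192618-8192867, minus strand: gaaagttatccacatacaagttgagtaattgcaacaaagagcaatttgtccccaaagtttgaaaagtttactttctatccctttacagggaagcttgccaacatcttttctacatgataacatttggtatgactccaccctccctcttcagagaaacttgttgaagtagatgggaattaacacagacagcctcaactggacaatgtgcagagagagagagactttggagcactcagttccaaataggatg
Col9a1, chr1:24177360-24177609, plus strand: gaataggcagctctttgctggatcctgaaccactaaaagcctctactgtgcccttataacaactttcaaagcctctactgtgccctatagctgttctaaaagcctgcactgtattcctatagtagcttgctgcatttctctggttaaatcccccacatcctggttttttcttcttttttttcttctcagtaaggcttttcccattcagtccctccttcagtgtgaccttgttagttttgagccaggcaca
Col3a1, chr1:45311288-45311537, plus strand: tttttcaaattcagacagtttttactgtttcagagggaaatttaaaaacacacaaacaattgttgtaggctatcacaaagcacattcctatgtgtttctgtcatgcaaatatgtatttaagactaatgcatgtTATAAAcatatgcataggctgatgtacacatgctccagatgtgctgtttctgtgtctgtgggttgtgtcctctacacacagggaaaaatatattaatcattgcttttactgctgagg

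Of these 4 sequences only that of Col3a1 held a match, to the TATA box motif TATAAA. RefSeq promoters were matched for 35 of the 44 genes by symbol. In the 250 bases before the start, TATAAA was found on either strand in 5 of the 35 (14.3%), beside 13.0% of 27025 promoters of all genes, CCAAT in 12 (34.3%), beside 34.5%, and the GC box GGGCGG in 21 (60.0%), beside 32.9%. The median G and C content was 59.6% over the 35 collagen promoters, beside 52.0% over the promoters of other genes. The part of this content in the GC box share was not tested. The interval between Col4a3 and Col4a4 was 69.0% G and C, the Col28a1 promoter 40.4% and the Col3a1 promoter 35.2%. These matches are descriptions of letters and not of binding.

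The other collagen IV pairs are likewise arranged head to head. Col4a1 and Col4a2 overlap at their starts by 22 bases on chromosome 8, and Col4a5 and Col4a6 lie 1308 bases apart on the X chromosome. Col4a1 had 159, 214, 451, 129 and 274 CPM in controls 1 to 5 and 172, 131, 240, 123 and 470 CPM in Dot1l-cKO 1 to 5, so both groups spanned nearly the same range. Its log2 fold change was -0.11 ± 0.42 (SE), adjusted p = 0.916. The ratio of Col4a1 to Col4a2, per length, stayed between 1.91 and 2.42 in all 10 samples while each gene varied about 4-fold. The mean log2 ratio differed by 0.03 between the groups.

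Col4a6, a chain of epithelial and smooth muscle basement membranes, had 9.57, 11.7, 19.1, 5.89 and 8.57 CPM in controls 1 to 5 and 15.3, 15.7, 17.8, 12.02 and 29.1 CPM in Dot1l-cKO 1 to 5. Control 3 lay among the Dot1l-cKO samples and the other 4 controls below them all. Over all samples the log2 fold change was 0.71 ± 0.31 (SE), adjusted p = 0.218 in edgeR, and 1.01 with an adjusted p of 0.0434 without control 3. Col4a5, its partner and the X-linked gene of Alport syndrome, had a log2 difference of 0.30 ± 0.25, adjusted p = 0.567. The ratio of Col4a5 to Col4a6 did not overlap between the groups, at 3.00 to 4.18 in the controls and 2.52 to 2.72 in Dot1l-cKO. Of the 12 pairs, only this one and Col9a2 with Col9a3 had ratios that did not overlap. How often the ratios of other gene pairs separate in this way was not determined. The mean log2 ratio differed by -0.47, and by -0.58 within the 6 libraries of other numbers, again as a description without a test.

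**Figure D2:**
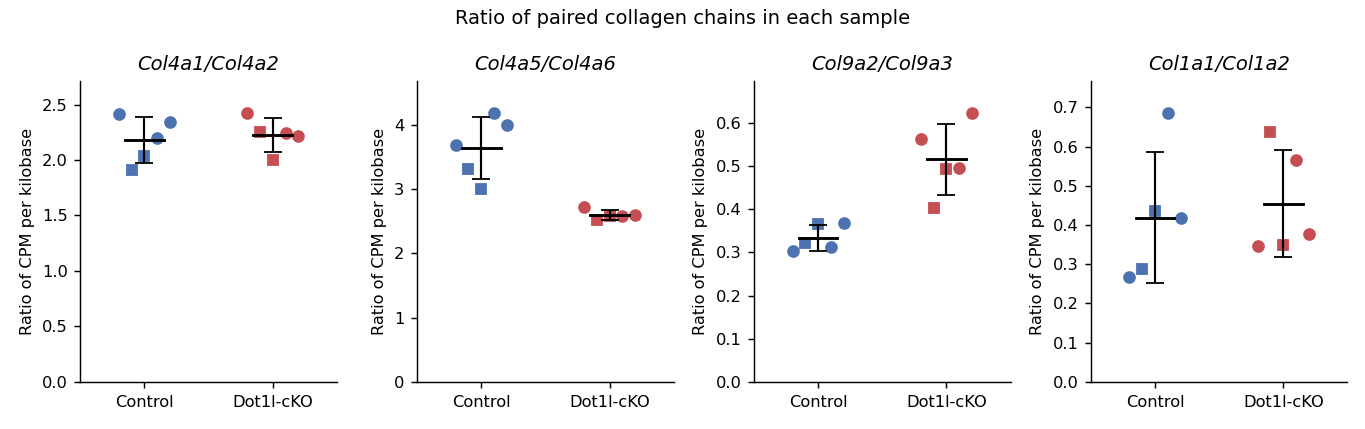
Ratio of CPM per kilobase (linear axes from 0) for 4 of the 12 chain pairs in each sample, with group mean and SD (bars, n = 5). Squares are replicates 2 and 3. In the chain pairs not shown the groups overlapped. The ratio of Col4a1 to Col4a2 was alike in both groups, the ratio of Col4a5 to Col4a6 was 3.00 or more in the controls and 2.72 or less in Dot1l-cKO, that of Col9a2 to Col9a3 was higher in each Dot1l-cKO sample than in each control, and that of Col1a1 to Col1a2 overlapped.

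The fibrillar collagens of connective tissue differed far more among samples of 1 genotype than between genotypes. Col3a1 had 86.9, 129, 459, 9.997 and 177 CPM in controls 1 to 5 and 141, 10.1, 112, 10.38 and 417 CPM in Dot1l-cKO 1 to 5. The highest value exceeded the lowest 46.0-fold in the controls and 41.5-fold in Dot1l-cKO, and control 4, Dot1l-cKO 2 and Dot1l-cKO 4 were alike. Between genotypes the log2 fold change was -0.32 ± 1.02 (SE), adjusted p = 0.898. It was -2.85 as a difference of mean log2 CPM within replicates 2 and 3 and 0.66 within the other 6 libraries, and 0.46 without control 3.

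Col1a1 and Col1a2, the 2 chains of collagen I, followed nearly the same order of samples. Col1a1 had 10.3, 13.8, 100.1, 3.35 and 29.3 CPM in controls 1 to 5 and 25.4, 4.28, 20.1, 4.37 and 82.2 CPM in Dot1l-cKO 1 to 5. The log2 fold change was -0.20 ± 0.94 (SE), adjusted p = 0.931, and 0.94 without control 3. Col1a2 ranged from 4.41 to 208 CPM in the controls and from 6.07 to 197 CPM in Dot1l-cKO. Of the 11 fibrillar genes none was called, beside 7.11% of all genes tested. Among them 4 had a log2 fold change above 0 and 7 below, and the median was -0.11, beside -0.0056 over all genes.

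Other fibrillar genes varied less. Col2a1 had 57.9 to 114 CPM over the 10 samples with a log2 fold change of -0.07 ± 0.22, adjusted p = 0.897. The 8 cartilage and bone markers checked, such as Acan and Comp, together had 0.937 to 3.02 CPM in any sample. Col11a1 and Col11a2, which pair with collagen II in cartilage, had log2 fold changes of -0.26 ± 0.20 and -0.19 ± 0.18, and Col11a2 had the narrowest range of the collagen genes tested, 1.75-fold between the highest and lowest sample. Col24a1, a rare fibrillar collagen, had 0.175 to 0.748 CPM in the controls and 0.528 to 1.22 CPM in Dot1l-cKO, with a log2 fold change of 0.92 ± 0.38, adjusted p = 0.194.

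**Figure D3:**
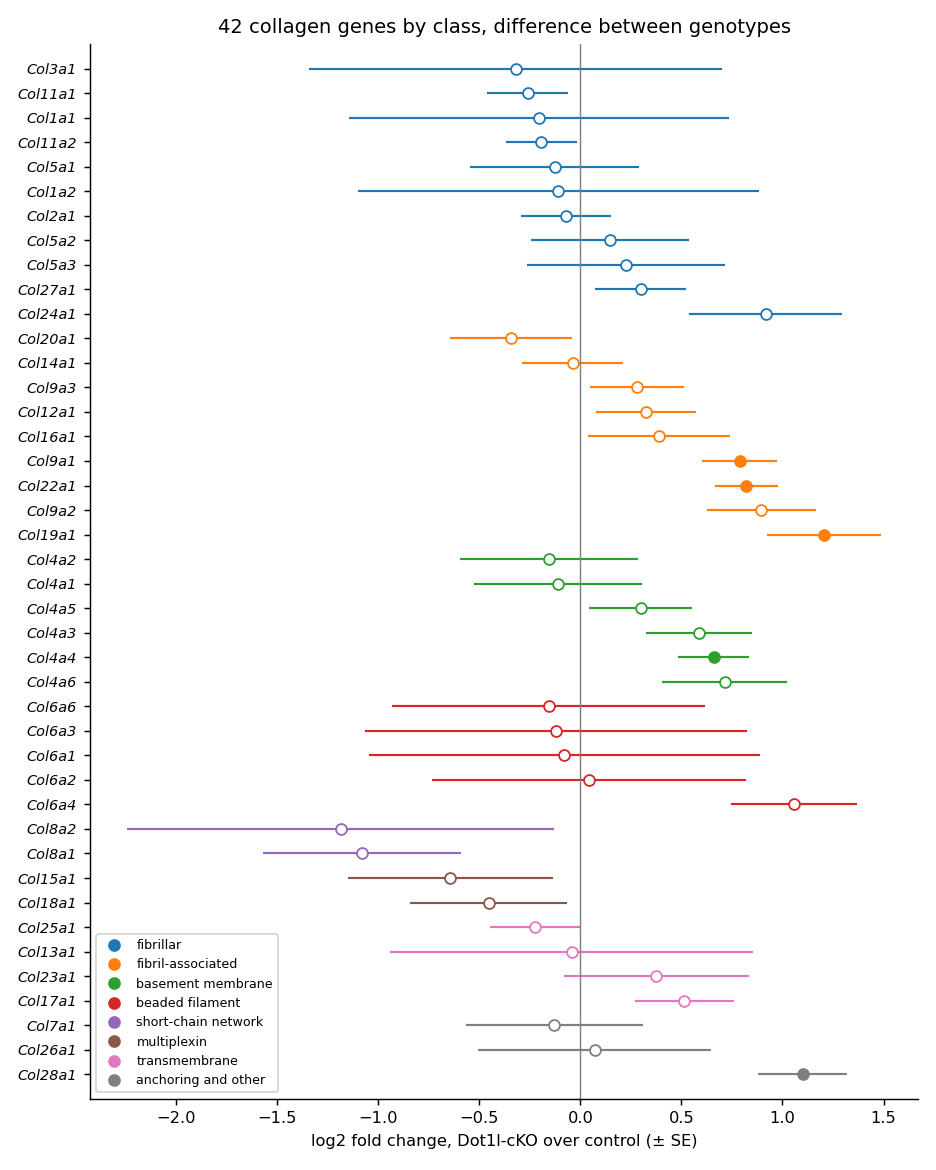
Log2 fold change of Dot1l-cKO over control from edgeR (x axis, 0 is no difference) with its SE for the 42 collagen genes tested, coloured by class; filled points are called at an adjusted p under 0.05. The filled points are Col22a1, Col28a1, Col19a1, Col9a1 and Col4a4, and the SE of Col3a1, Col1a1, Col1a2, Col6a1, Col6a3 and Col8a2 are each above 0.9.

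Among the 9 fibril-associated genes, 3 were called higher, beside 5.67% of all genes tested. In 7 the log2 fold change was above 0, beside 8322 of 17039 genes, and the median was 0.39, beside -0.0056. Nothing particular to this class is read from 9 genes. Col12a1, which binds collagen I fibrils, had a log2 fold change of 0.32 ± 0.25, and Col16a1 one of 0.39 ± 0.35, neither called. Col20a1, at 12 to 42 counts per library, and Col14a1 lay below 0, at -0.34 ± 0.30 and -0.04 ± 0.25.

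Collagen VI, which forms beaded microfibrils around cells, had 2 kinds of pattern. Col6a1 ranged from 0.576 to 26.1 CPM in the controls and from 0.890 to 29.7 CPM in Dot1l-cKO, lowest in control 4 and highest in Dot1l-cKO 5, and Col6a2 and Col6a3 had the same lowest and highest samples. Their log2 fold changes were -0.08 ± 0.97, 0.04 ± 0.78 and -0.12 ± 0.95. The rare chain Col6a4 had 0.141, 0.246, 0.150, 0.156 and 0.113 CPM in controls 1 to 5 and 0.434, 0.399, 0.438, 0.211 and 0.209 CPM in Dot1l-cKO 1 to 5, from 7 to 25 counts per library. Only control 2 exceeded any Dot1l-cKO sample, and the log2 fold change was 1.06 ± 0.31 (SE), adjusted p = 0.0688 in edgeR. With the number in the column names as a block Col6a4 was called, at 1.02 with an adjusted p of 0.0388.

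Over all 10 samples the largest negative fold changes were those of the short-chain collagen VIII, a network collagen of vessels and of the corneal Descemet membrane. Col8a1 had 1.25, 0.368, 2.32, 0.529 and 0.758 CPM in controls 1 to 5 and 0.585, 0.243, 0.368, 0.814 and 0.451 CPM in Dot1l-cKO 1 to 5. The groups overlapped, and the log2 fold change was -1.08 ± 0.49 (SE), adjusted p = 0.240, and -0.55 without control 3. Col8a2 had its 2 highest values in controls 3 and 1, at 12.9 and 5.51 CPM, and values from 0.106 to 4.59 CPM in Dot1l-cKO. Its log2 fold change was -1.18 ± 1.06. Without control 3 and Dot1l-cKO 5, the libraries of highest collagen total, Col15a1 had the lowest value of the collagen genes tested, below Col8a2 at -0.78 and Col8a1 at -0.52. The summed level of 6 choroid plexus markers, led by Ttr, was also highest in controls 3 and 1 (652 and 551 CPM, against 1.98 to 4.03 CPM in the other controls and 3.26 to 153 CPM in Dot1l-cKO). The part of choroid plexus in the Col8a2 values was not tested.

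Both multiplexins, Col18a1 and Col15a1, had log2 fold changes below 0, at -0.45 ± 0.39 and -0.64 ± 0.51, with adjusted p of 0.568 and 0.529. Col18a1, the source of endostatin, had 61.2, 72.4, 125, 44.1 and 66.9 CPM in controls 1 to 5 and 40.9, 32.8, 50.8, 28.7 and 117 CPM in Dot1l-cKO 1 to 5. Of the transmembrane collagens, Col13a1 varied 134-fold between its highest and lowest sample, on 2 to 260 counts, and Col25a1, a collagen of neurons, 2.21-fold. None of the 4 was called, with log2 fold changes from -0.22 to 0.51. In the last class Col7a1, the collagen of anchoring fibrils, and Col26a1 had log2 fold changes of -0.13 ± 0.44 and 0.07 ± 0.58.

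Collagens I and III and the collagen VI chains Col6a1, Col6a2 and Col6a3 ordered the samples much as meningeal fibroblast markers did. These 11 markers, such as Foxc1, Tbx18, Slc6a13 and Lum, none of them a collagen, summed to 17.4 to 177 CPM in the controls and 16.1 to 179 CPM in Dot1l-cKO. They were highest in control 3 and Dot1l-cKO 5 and lowest in control 4 and Dot1l-cKO 4, none was at 0 in all samples, and none was called between genotypes. Endothelial markers were highest in the same 2 samples, with a sum of 276 CPM in control 3 and 314 CPM in Dot1l-cKO 5, and 138 to 235 CPM in the others. The sum of 8 pericyte and smooth muscle markers was 88.5 to 140 CPM in the controls and 81.3 to 155 CPM in Dot1l-cKO, highest in Dot1l-cKO 5. The slope of each gene's log2 expression on the mean log2 CPM of these markers was fitted with genotype in the same edgeR model, an analysis added after the sample order had been seen. A positive slope was called for 21 of the 42 collagen genes, beside 2.45% of all genes, and a negative one for none, beside 0.0176%. It was also called for 5 of 9 endothelial and 3 of 8 pericyte and smooth muscle markers, so the level of the fibroblast markers moved with that of vessel markers, and the part of each cell type was not tested. Among collagen genes slopes were highest for Col3a1 at 1.34 ± 0.09 (SE), Col6a1 at 1.27 ± 0.07, Col8a2 at 1.27 ± 0.20 and Col1a2 at 1.25 ± 0.08. They were lower for basement membrane Col4a1 at 0.42 ± 0.07 and Col4a2 at 0.42 ± 0.08. For the called genes they lay between -0.02 ± 0.06 for Col4a4 and 0.09 ± 0.07 for Col28a1, and none of the 5 passed the test, with adjusted p from 0.755 to 0.988. The genotype calls came from a fit without the marker level. In that fit a gene that varies with the markers tends to have a larger SE and is called less readily. Without control 3 and Dot1l-cKO 5, the libraries of highest collagen total, a positive slope was called for 8 of 41 collagen genes, beside 0.572% of all genes. These were Col1a1, Col1a2, Col3a1, Col6a1, Col6a2, Col6a3, Col23a1 and Col26a1.

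**Figure D4:**
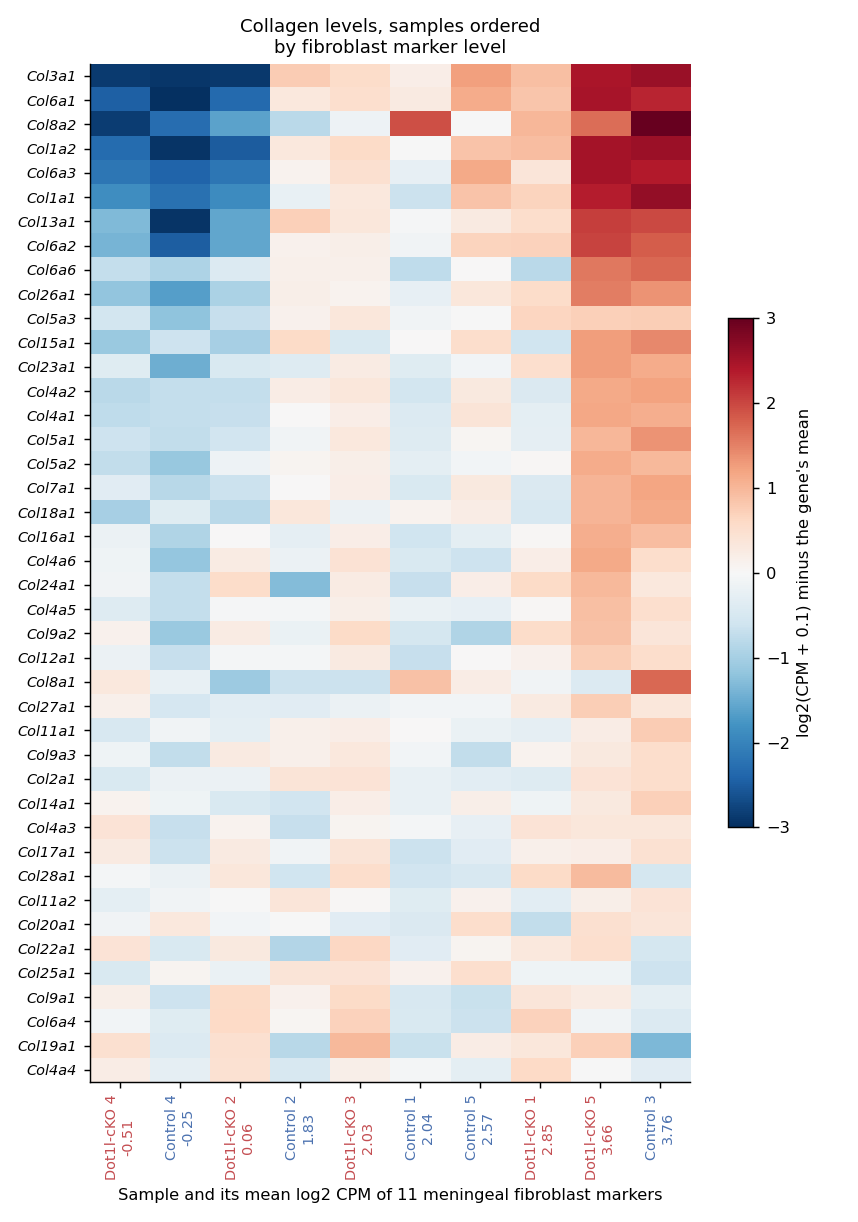
Heat map of log2(CPM + 0.1) minus the gene's mean over the 10 samples for 42 collagen genes, ordered from the highest (top) to the lowest (bottom) slope on the fibroblast markers; samples run from the lowest (left) to the highest (right) marker level, given under each name in log2 CPM, with controls in blue and Dot1l-cKO in red. From Col3a1 at the top the colours change from left to right, both genotypes mixed, whereas at the bottom genes such as Col19a1 and Col4a4 differ by genotype; colours saturate at 3.

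**Figure D5:**
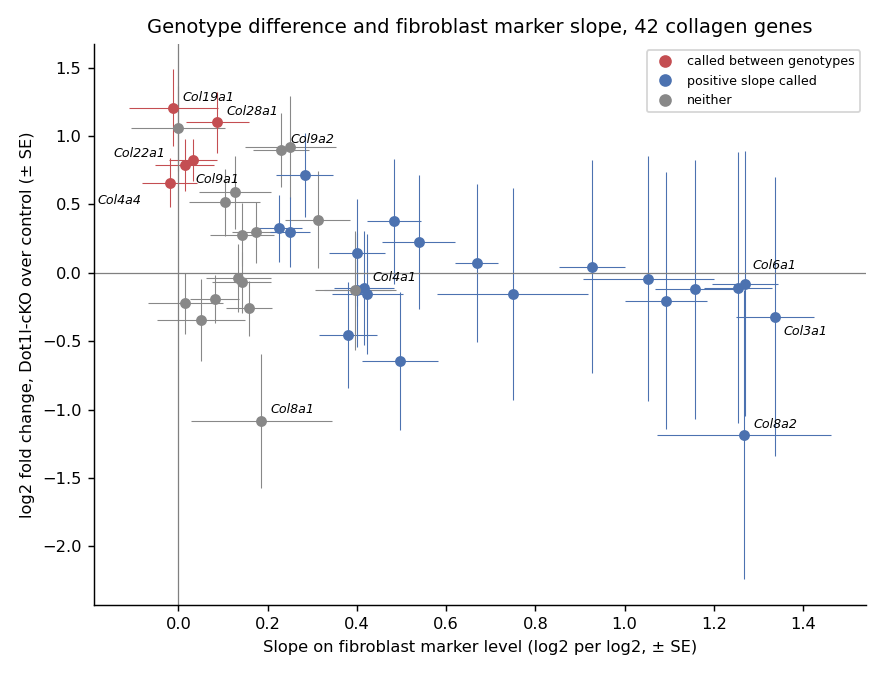
Each point is 1 of 42 collagen genes, with its slope on fibroblast marker level (x axis, log2 per log2) against its log2 fold change of Dot1l-cKO over control (y axis), bars showing SE. The 5 genes called in the fit without the marker level have slopes between -0.02 and 0.09. The 21 genes with a called positive slope include none of them, and genes that vary with the markers are called less readily in that fit.

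With the marker level as a covariate, 6 collagen genes were called higher. Col22a1, Col28a1, Col19a1 and Col9a1 remained, Col4a4 was lost (adjusted p = 0.0543), and Col9a2 and Col4a6 passed (adjusted p = 0.0089 and 0.0225). Col4a6 also had a called positive slope, of 0.28 ± 0.06 (SE, adjusted p = 0.0468 in edgeR). Without control 3 and Dot1l-cKO 5 the 3 called genes were Col22a1, Col28a1 and Col9a2. Of the markers of other cells, all 6 of microglia were called higher, beside 5.67% of all genes. Their summed level was 29.0 to 50.8 CPM in the controls and 59.4 to 88.4 CPM in Dot1l-cKO. The 8 ventral telencephalon markers summed to 54.7 to 280 CPM in the controls and 5.36 to 81.7 CPM in Dot1l-cKO, so the groups overlapped. The median of this sum was 201 CPM in the controls and 44.7 CPM in Dot1l-cKO. All 7 markers tested were lower in Dot1l-cKO, with a median log2 fold change of -1.75 and the smallest difference at -1.56. Of these 7 only 1, Lhx6, was called lower, beside 1.44% of all genes. The part of either cell type in the rises of the 5 collagen genes was not tested.

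The genes that make, process and bind collagens were read from 5 lists with 70 genes, of which 65 were tested. Of these, 3 were called higher and 1 lower, beside the same 5.67% and 1.44% of all genes. In the list of synthesis and folding, 2 of 20 rose, Colgalt2, which adds galactose to collagen hydroxylysine, and P3h4, a partner of the lysyl and prolyl hydroxylases. Colgalt2 had 3.12 to 4.79 CPM in the controls and 6.38 to 9.65 CPM in Dot1l-cKO, a log2 fold change of 1.02 ± 0.15 (SE, adjusted p = 0.0023 in edgeR). P3h4 had 6.42 to 11.2 CPM in the controls and 11.7 to 14.1 CPM in Dot1l-cKO, a log2 fold change of 0.64 ± 0.15 (adjusted p = 0.0259). Its call was lost without control 1, 2 or 4 or Dot1l-cKO 1, 3 or 5, with adjusted p from 0.0504 to 0.0726. Serpinh1, the collagen chaperone HSP47, had a log2 difference of -0.18 ± 0.23, adjusted p = 0.718.

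In the list of propeptide cleavage and cross-linking, 1 of 13 tested rose. Tll1, a relative of the procollagen C-proteinase Bmp1, had 4.42, 2.49, 3.44, 1.78 and 4.12 CPM in controls 1 to 5 and 10.36, 11.9, 11.6, 10.1 and 9.21 CPM in Dot1l-cKO 1 to 5. Every Dot1l-cKO sample exceeded every control more than 2-fold, and the log2 fold change was 1.71 ± 0.22 (SE, adjusted p = 0.0013 in edgeR). Lox, the lysyl oxidase that cross-links fibrils, had 0.561 to 17.2 CPM in the controls and 0.664 to 10.9 CPM in Dot1l-cKO, with a log2 fold change of -0.19 ± 0.86 and a fibroblast slope of 1.11.

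Among 10 receptors, Adgrg1 was called lower. It encodes GPR56, an adhesion receptor of radial glia and neurons for collagen III at the pial surface. Its level was 163, 177, 182, 182 and 157 CPM in controls 1 to 5 and 114, 70.4, 119, 131 and 141 CPM in Dot1l-cKO 1 to 5. The groups did not overlap, as in 2.17% of all genes in this direction, and the log2 fold change was -0.58 ± 0.15 (SE, adjusted p = 0.0448 in edgeR). The difference was -0.97 within replicates 2 and 3 and -0.38 within the other 6 libraries, and the call held without Dot1l-cKO 2 or 5 and was lost without each of the other 8 samples, with adjusted p from 0.0516 to 0.0992. It was also lost with the number in the column names as a block (adjusted p = 0.0529), within the other 6 libraries alone (0.108) and without the 2 libraries of highest collagen total (0.0507). Ddr1, a collagen receptor kinase of epithelia, had a log2 difference of -0.15 ± 0.10, adjusted p = 0.443. Of 10 tested genes of degradation and 12 matrix partners none was called. With the replicate number as a block 3 further genes of these lists passed, P4ha3 at a log2 fold change of 1.13 (adjusted p = 0.0053), Loxl3 at 0.52 (0.0381) and Mmp14 at -0.48 (0.0447). Leaving out Dcn and Lum, which are themselves among the fibroblast markers, a positive fibroblast slope was called for 17 of 63 genes, beside the same 2.45% of all genes, and 6 of the 17 were matrix partners.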

How the data were processed

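Members and lists were chosen with earlier results of these data known. The deposited values are whole-number counts per gene, made by the authors with Trim Galore 0.2.8, TopHat2 2.0.9 on mm10 and reverse-stranded HTSeq 0.6.0 with an Ensembl annotation, from rRNA-depleted stranded libraries. The other deposited tables hold the same counts divided by DESeq2 1.6.1 size factors, a normalised signal used here only with limma. Symbols, coordinates and lengths are from GENCODE on the same build, which matched 42548 identifiers.

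edgeR 4.0.16 (R 4.3.3) was run on all 10 samples with filterByExpr, TMM and the quasi-likelihood test, without covariate, at a Benjamini-Hochberg adjusted p under 0.05. SEs are approximate, and CPM use TMM library sizes. The code was tested on simulated counts. Intervals from counts would cover counting error only.

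Named were all collagen genes called, the 5 most abundant per length, their trimer or promoter partners, called genes of related lists (at most 5 per list) and Adgrg1, Ddr1, Serpinh1 and Lox. Genes described beyond these, such as Col6a4, Col8a1, Col8a2 and Col24a1, and the chain pairs were chosen after their values were seen.

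Controls were littermates of the Dot1l-cKO embryos per the study's methods, and samples of the same replicate number deviated together (correlations 0.23, 0.35, 0.15, 0.60 and 0.13, against a mean of -0.07 for different numbers), so blocked values are given where they change a call. No replicates were duplicates by chi-square. Alternatives were DESeq2 1.42.0, its size factors, other filters, limma 3.58.1 with pseudocount 1, blocks, a threshold of 0.01, each sample left out and each library set. Those chosen after seeing the data were the 4 libraries alone, the 2 highest left out and the marker covariate. One item of the genotype is not reported here.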

Additional observations from a re-analysis of the deposited data

Results flagged for a closer look

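Each of the 42 tested collagen genes was examined in both groups of 5 samples for a sample whose gap to its neighbour, as a share of the group's range on the log2 CPM scale, exceeded Dixon's critical value of 0.71. Of the 84 groups 2 passed, where chance passes about 1 in 20. Col15a1 in Dot1l-cKO 5 stood at 11.5 CPM against a group median of 3.13 CPM, with a gap of 0.721 of the range. Dot1l-cKO 5 also had one of the highest fibroblast marker levels, 3.66 in mean log2 CPM, and the part of that in the Col15a1 value was not tested. Col28a1 in control 4 stood at 0.623 CPM against a group median of 0.464 CPM, with a gap of 0.720, and still below the lowest Dot1l-cKO sample.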

How the results depend on the processing

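The 5 collagen genes called higher became 2 within the 6 libraries of other numbers (Col9a1, which was among the 5, and Col9a2, which was not), 0 within the 4 of number 57 (where 1 gene of all passed as higher and 0 as lower), 3 without the 2 libraries of highest collagen total and 1 at an adjusted p under 0.01. Leaving out 1 sample gave 2 to 7, 7 without control 3. No collagen gene was called lower under any alternative. With the replicate block 5 were called, and beyond Col4a4 lost and Col9a2 gained it changed no other call of a collagen gene. With the header-number block 7 were called, the 5 with Col6a4 and Col9a2. Over all genes, 966 higher and 246 lower became 590 and 155 within the 6 libraries and 422 and 73 at the stricter threshold, and the lower ones became 663 with DESeq2, 495 with the replicate block and 597 with the header-number block. One sample left out gave 624 to 1076 higher and 126 to 343 lower. Of genes in related lists, 3 higher became 6 with DESeq2, within the 6 libraries and with the marker covariate, 5 with either block or without the 2 libraries, 0 within the 4 libraries, and 2 to 7 with 1 sample left out. The 1 lower gene became 2 with the replicate block, 0 within either library set, without the 2 libraries or at the stricter threshold, and 0 to 1 with 1 sample left out. Only some genes were followed singly through all alternatives. Among these, the log2 fold changes of Col3a1 (1.07), Col1a1 (1.39) and Col18a1 (0.12) reversed within the 6 libraries and that of Col1a1 (0.20) with the covariate. These are values of edgeR fitted anew. For Col18a1 the difference of mean log2 CPM within the same 6 libraries was -0.13, so its reversal depended on the measure. With 1 sample left out Col3a1 ranged from -1.34 to 0.46 and Col1a1 from -1.22 to 0.94. The causes were not tested. Of 37 uncalled collagen genes, 27 changed sign under at least 1 alternative, 15 of them within the 6 libraries and 10 with the covariate. For genes at under 100 counts per library, such as Col28a1, Col4a4 and Col6a4, counting error limits the precision.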
